A study of Mus musculus with 31 samples.

Results

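Genes for the enzymes and membrane proteins of the lysosome were followed in mouse embryonic stem (ES) cells and in the embryoid bodies (EBs) that formed from them. The set holds 35 named genes: cathepsins and other proteases, glycosidases, lipid and sulfate hydrolases, activator and carrier proteins, and proteins of the lysosomal membrane. A gene was measured where a probe set carried its symbol and no other, and where several did, the brightest on average stood for it. By this rule 33 of the 35 were measured, among 8251 genes in all, while Arsb and Manba had no such probe set. The 31 arrays (Affymetrix MgU74Av2) hold B6 mouse cells, for which the labels name no mutation: EBs after withdrawal of LIF (7 arrays at day 4, 6 arrays at day 8 and another 6 at day 14), ES cells passaged on gelatin (6 arrays) and ES cells sorted for Oct4-GFP, a fluorescent reporter of undifferentiated cells (6 arrays). The EBs were seeded from the cells on gelatin, which had been freed of feeder fibroblasts and passaged there once, with no sort described. Both ES cell groups are labelled with the starting time, but only the cells on gelatin are described as the source of the EBs. The EBs were set against each group. An EB is a mixed aggregate with no selection for any cell type, and the arrays read its RNA in bulk, where fewer cells of a type and less RNA per cell cannot be told apart.

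The lysosome is the acidic compartment in which cells break down protein, sugar chains, lipids and nucleic acids. Its enzymes are made in the endoplasmic reticulum, tagged with mannose 6-phosphate and carried by mannose 6-phosphate receptors to endosomes, and the vacuolar proton pump keeps the compartment acid. The visceral endoderm of the yolk sac, which also forms the outer layer of EBs, is known for taking up maternal protein through the receptors megalin (Lrp2) and cubilin (Cubn) with the adaptor Dab2, and for digesting it in large lysosomes. The transcription factor TFEB drives many lysosomal genes through an E-box element named CLEAR.

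The promoters are shown for some members that the results turn on. Of the 35 genes, 30 had a promoter window in the RefSeq table (GRCm38.p6), which runs from 250 bases before to 50 bases after a gene start. The 120 bases before the start are printed 5′ to 3′ on the strand of the gene for Lamp1, Ctsd and Lgmn, which hold the E-box CACGTG there, in capitals, and for Tpp1, Ctsz and Ctsc, which were among the members that changed most and hold none.
Lamp1, chr8:13159041-13159160, plus strand: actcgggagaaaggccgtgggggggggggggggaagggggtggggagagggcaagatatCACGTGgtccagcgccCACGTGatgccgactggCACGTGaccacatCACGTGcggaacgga
Ctsd, chr7:142387828-142387947, minus strand: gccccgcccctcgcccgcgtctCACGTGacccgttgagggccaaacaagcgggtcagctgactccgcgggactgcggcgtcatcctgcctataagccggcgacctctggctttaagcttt
Lgmn, chr12:102439093-102439212, minus strand: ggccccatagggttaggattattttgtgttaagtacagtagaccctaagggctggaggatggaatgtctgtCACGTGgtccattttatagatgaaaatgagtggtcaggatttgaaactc
Tpp1, chr7:105752236-105752355, minus strand: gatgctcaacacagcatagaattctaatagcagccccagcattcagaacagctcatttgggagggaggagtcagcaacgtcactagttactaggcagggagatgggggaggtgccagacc
Ctsz, chr2:174439040-174439159, minus strand: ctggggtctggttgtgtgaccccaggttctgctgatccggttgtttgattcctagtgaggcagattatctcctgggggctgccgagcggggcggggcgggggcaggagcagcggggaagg
Ctsc, chr7:88277965-88278084, plus strand: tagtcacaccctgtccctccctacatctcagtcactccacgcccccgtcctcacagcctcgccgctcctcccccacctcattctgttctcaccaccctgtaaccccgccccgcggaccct
The E-box CACGTG reads the same on both strands. It was found in 11 of the 30 members (Arsa, Cln3, Ctsa, Ctsd, Ctsl, Gaa, Gla, Glb1, Lamp1, Lgmn and Naglu), or 36.7%, against 8.09% of all 27025 genes in the table and 11.5% of the 6576 genes that were also on the array. The longer motif GTCACGTG, which contains the E-box and was searched on both strands, was found in 9 of the 30 (30.0%), against 2.55% of all genes and 4.61% of those on the array. Lamp1, a heavily glycosylated coat protein of the lysosomal membrane, held 4 matches within 61 bases of its start, more than any other member. The Lgmn gene has 2 windows, and the 1 with the match is printed. A match is a stretch of letters and was not tested as a binding site.

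**Figure D1:**
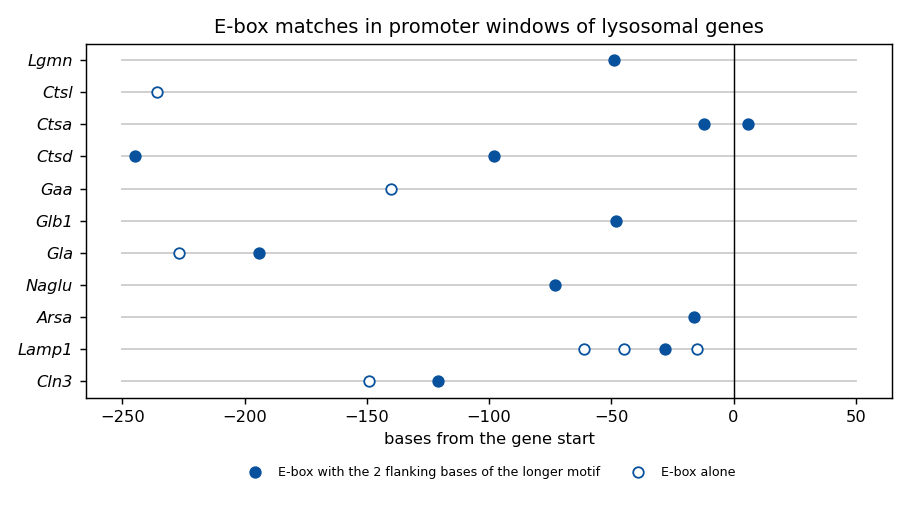
Positions of the E-box (first base of each match) in bases from the gene start for the 11 members with a match, with grey lines marking the window searched. Filled circles are matches that also carry the longer motif and open circles are the E-box alone, and the 4 matches of Lamp1 lie between -61 and -15.

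Of the day 4 arrays, 2 stood apart from their group. In day 4 arrays 6 and 7 the pluripotency gene Pou5f1 had signals of 2407 and 2617, against 5340 to 6651 in day 4 arrays 1 to 5, and Dab2 had 1361 and 2798, against 235 to 351. The pluripotency genes Zfp42, Sox2, Dppa5a, Tdgf1 and Klf4 were also below the other day 4 arrays. Nanog was above them (6030 and 6653, against 3969 to 5979), and Dppa3, Fbxo15 and Esrrb overlapped. Of the 33 members, 9 were above and 4 below the other 5 arrays in both arrays 6 and 7, or 27.3% and 12.1%, against 20.2% and 20.2% of all genes. The day 4 counts of members, and the changes of some members, are therefore given with and without these arrays, a choice made after seeing the data. Other day 4 changes, counts and medians are over all 7 arrays of that day. The 3′ to 5′ signal ratio of the Gapdh control, a sign of RNA integrity and amplification, was 2.24 and 2.34 in these arrays and 2.77 to 4.40 in the other day 4 arrays, 2.06 to 2.68 in both later EB groups, 3.48 to 6.85 in ES cells on gelatin and 2.76 to 3.09 in sorted ES cells. Its part in the results was not tested. Set against sorted cells, 2 of 24 yolk sac endoderm genes were higher at day 4 (12.1% of all genes) and 16 at day 8 (16.9%). At day 14, 20 of the 24 were higher and 1 was lower than in sorted cells. All 10 pluripotency genes were lower at day 14 in that comparison, where 27.0% of all genes were higher and 24.4% lower. Against cells on gelatin, from which the EBs were seeded, day 4 EBs had 4 of the 10 pluripotency genes higher (8.33% of all genes). Day 8 EBs had 4 higher and 2 lower (18.7% and 26.2% of all genes), and day 14 EBs had 6 lower (24.1%). Nanog was among those higher than on gelatin at day 4 (0.95) and at day 8 (1.11).

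Lysosomal genes did not move as a block. At day 14, set against sorted ES cells, 19 of the 33 were higher by the limma test at an adjusted p of 0.05, 4 were lower and 10 did not reach it, against 27.0% of all genes higher and 24.4% lower. The median change of the members was 0.42 on the log2 scale, and that of all genes 0.00. Against ES cells on gelatin, 13 were higher, 5 lower and 15 did not pass, against 22.8% and 24.1% of all genes, with medians of 0.08 for the members and 0.00 for all genes. In both comparisons 12 members were higher: the proteases Ctsh, Ctsc, Lgmn, Ctsz, Ctsl, Ctss, Ctsb and Tpp1, the cholesterol transporters Npc1 and Npc2, the membrane protein Lamp2 and the sulfatase Arsa. Scarb2 alone was lower in both. Ctsd and Psap were higher than in sorted ES cells and lower than in cells on gelatin. Gaa, Galc, Gla, Gusb, Lipa, Man2b1 and Smpd1 passed in neither. The comparisons at days 4, 8 and 14 share their ES cell arrays, so their counts are not independent of one another.

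The counts of higher members grew between days 4 and 8 against both ES cell groups, and so did the shares of all genes. At day 4, 13 members were higher and 4 lower than in sorted ES cells (12.1% and 14.0% of all genes), with a median of 0.14, and at day 8 it was 17 and 7 (16.9% and 19.4%), with a median of 0.20. Against ES cells on gelatin, 2 members were higher and 7 lower at day 4 (8.33% and 17.8% of all genes) and 11 and 7 at day 8 (18.7% and 26.2%), with medians of -0.03 and 0.04. At day 8, 11 members were higher and 5 lower than at day 4 (13.6% and 13.0% of all genes). Higher were Ctsh, Ctsc, Lgmn, Ctsz, Ctsl, Ctsb, Npc2, Cd63, Tpp1, Arsa and Hexa, and lower were Ctsa, Gla, Gusb, Lamp1 and Scarb2. Without day 4 arrays 6 and 7 it was 13 higher and 5 lower (20.4% and 20% of all genes), and day 4 then had 11 higher and 6 lower against sorted ES cells (15.5% and 18%) and 3 higher and 9 lower against cells on gelatin (8.41% and 17.7%). At day 14, 7 were higher than at day 8 (Asah1, Ctsa, Ctss, Glb1, Gusb, Smpd1 and Tpp1) and 0 were lower in the limma test, against 21.1% and 13.0% of all genes, so the share higher was near that of all genes. At an unadjusted p of 0.05, 3 (Cd63, Naglu, Npc2) were lower than at day 8. Tpp1 was the only member to rise in both steps, and Ctsa and Gusb fell in the first and rose in the last.

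**Figure D2:**
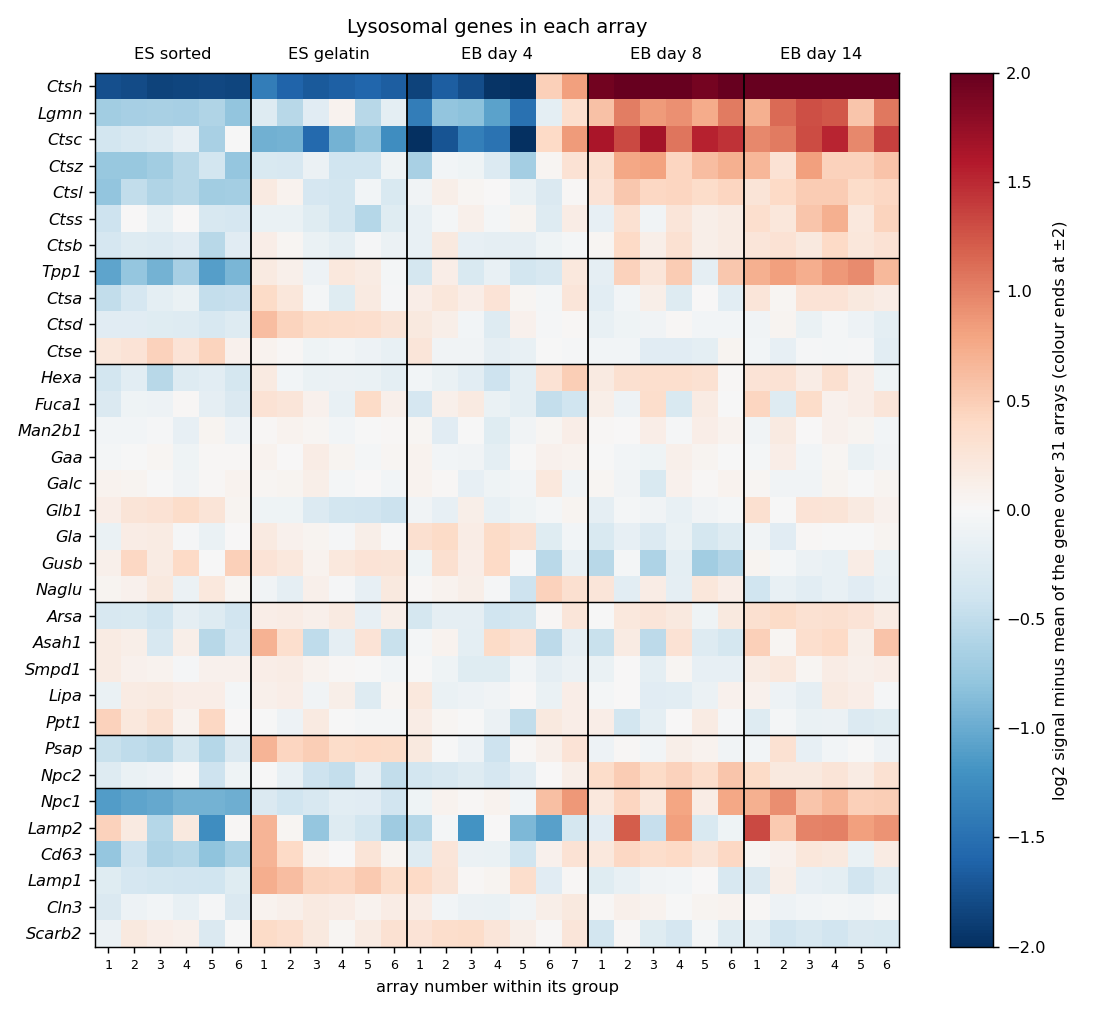
Each of the 33 lysosomal genes (rows, grouped by role with black lines: cysteine proteases, other proteases, glycosidases, lipid and sulfate hydrolases, activator and carrier, membrane proteins) in each of the 31 arrays (columns), as log2 signal minus the mean of the gene. The cysteine proteases at the top are mostly red in day 8 and day 14 arrays, and in day 4 arrays 6 and 7 for Ctsh and Ctsc, while Lamp1, Psap and Ctsd are red in ES cells on gelatin.

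The cysteine proteases were the only role group in which every measured member rose at days 8 and 14 against both ES cell groups. At day 14 against cells on gelatin this rests on the brightest probe set of Ctsb, since with the mean of its probe sets Ctsb did not pass (0.01, adjusted p = 0.910). All 7 were higher in the EBs of both later times, against sorted ES cells (median 1.26 at day 8 and 1.20 at day 14 on the log2 scale) and against ES cells on gelatin (median 0.88 and 0.82). All but Ctss, 6 of 7, were also higher at day 8 than at day 4, against 13.6% of all genes. Of all genes, 16.9% and 27.0% were higher against sorted cells at days 8 and 14, and 18.7% and 22.8% against cells on gelatin. The cysteine cathepsins Ctsk and Ctsf lie outside the set. Ctsk was lower than on gelatin at days 8 and 14 (-0.24 and -0.40) and did not pass against sorted cells (0.01 and -0.15). Ctsf was higher at both times against gelatin (0.23 and 0.39) and sorted cells (0.31 and 0.47). Ctsh, a cathepsin that acts mainly as an aminopeptidase, changed most of all members. Its signal at day 14 had a lowest value of 4269, a median of 5525 and a highest of 6315, against 321, 335 and 392 in ES cells on gelatin and 284, 290 and 303 in sorted ES cells. No day 14 array overlapped an ES cell array, and the change was 4.17 ± 0.36 on the log2 scale against sorted cells (± SE, limma adjusted p = 2.47e-10) and 3.95 ± 0.36 against cells on gelatin (adjusted p = 6.53e-10). Day 8 arrays, with 3864, 5825 and 7551 as lowest, median and highest, spanned a range that held all day 14 arrays. At day 4 the arrays split: arrays 1 to 5 had 231 to 328, at the level of ES cells, and arrays 6 and 7 had 1419 and 1818.

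Ctsc, or dipeptidyl peptidase I, which activates the serine proteases of granules, was at its lowest in most day 4 arrays. Its signal had a lowest value of 1555, a median of 1990 and a highest of 2438 in sorted ES cells, 833, 1259 and 1416 in ES cells on gelatin, then 5133, 6873 and 7770 in day 8 EBs and 4744, 5531 and 7014 in day 14 EBs. Every day 8 and day 14 array was above every ES cell array (1.49 ± 0.35 at day 14 against sorted cells, adjusted p = 8.67e-04, and 2.27 ± 0.35 against cells on gelatin, adjusted p = 5.23e-06). Day 4 arrays 1 to 5, at 541 to 952, overlapped only the lowest of the gelatin arrays and lay below every sorted array, whereas arrays 6 and 7, at 3223 and 4419, lay above all ES cell arrays. Without those arrays Ctsc was lower at day 4, both against sorted cells (-1.47, adjusted p = 1.09e-07) and against cells on gelatin (-0.70, adjusted p = 0.00168), and with them neither test passed (-0.79 and -0.01). A further 2 probe sets of Ctsc were also higher at day 14 than in sorted cells, by 3.00 and 0.56.

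Lgmn, the asparaginyl endopeptidase legumain, which trims and activates other cathepsins, followed the same course. It had a lowest signal of 1761, a median of 2553 and a highest of 2922 at day 14, against 812, 1007 and 1255 in ES cells on gelatin and 690, 752 and 790 in sorted ES cells, with no overlap. The changes at day 14 were 1.68 ± 0.21 against sorted cells (adjusted p = 1.48e-07) and 1.29 ± 0.21 against cells on gelatin (adjusted p = 8.53e-06). At day 4 it was 426 to 694 in arrays 1 to 5 and 1045 and 1510 in arrays 6 and 7, and without these last it was lower than in sorted cells (-0.43, adjusted p = 0.0193) and than on gelatin (-0.82, adjusted p = 7.31e-05). Ctsh, Ctsc and Lgmn thus shared a course in which most day 4 arrays were at or below the ES cells and all day 8 arrays were above them.

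Ctsz and Ctsl had smaller changes. Ctsz, a carboxypeptidase, had 2095, 2452 and 3018 as lowest, median and highest signal at day 14, against 1291, 1376 and 1611 in ES cells on gelatin and 1000, 1035 and 1318 in sorted ES cells (1.20 ± 0.13 and 0.82 ± 0.13 on the log2 scale against sorted and gelatin cells, adjusted p = 1.53e-08 and 7.01e-06). Ctsl, an endopeptidase and the brightest protease probe set of the set, had 10556, 11642 and 12548, against 6849, 7788 and 9955 on gelatin and 5067, 5643 and 6223 in sorted cells (1.05 ± 0.08 and 0.55 ± 0.08, adjusted p = 4.38e-11 and 3.24e-06). For both genes no array of a day 14 EB overlapped one of ES cells. They were already higher on gelatin than in sorted cells (0.38 and 0.50), where Ctsh (0.23) and Ctsc (-0.78) did not pass. Ctss and Ctsb, endopeptidases that also work in antigen processing, were higher at day 14 by 0.61 and 0.59 against sorted cells and by 0.70 and 0.32 against cells on gelatin. A less bright probe set of Ctsb did not pass against either (0.13 and 0.15), and another passed in opposite directions (0.54 and -0.47).

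**Figure D3:**
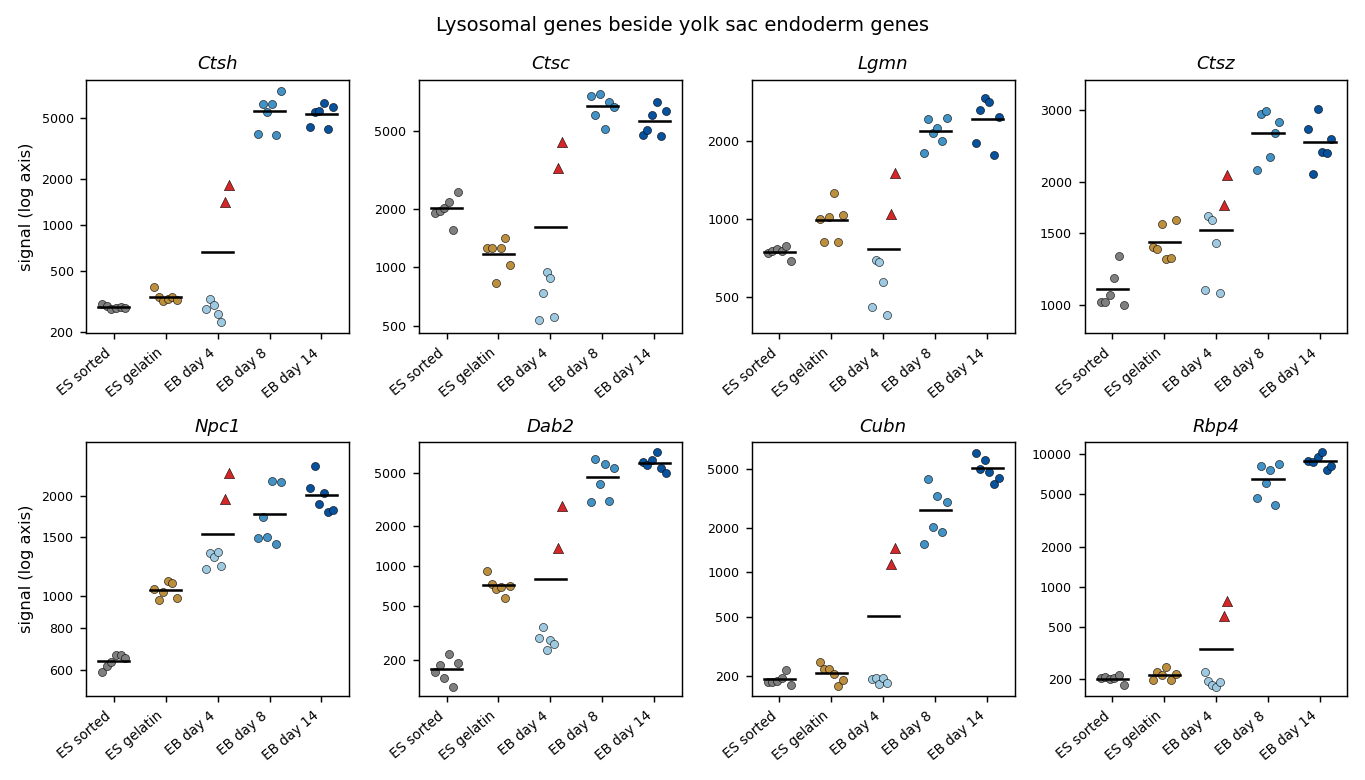
Signal of 5 lysosomal genes and of the yolk sac endoderm genes Dab2, Cubn and Rbp4 in each array (points, log axis), with group means as black bars and groups ordered in time. Red triangles are day 4 arrays 6 and 7, which lie above the other 5 day 4 arrays in all 8 panels.

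Among the other proteases, Tpp1, the tripeptidyl peptidase that is lost in a childhood neuronal ceroid lipofuscinosis, rose in several steps. It had a lowest signal of 2144, a median of 2336 and a highest of 2628 at day 14, against 1270, 1491 and 1580 in ES cells on gelatin and 635, 715 and 858 in sorted ES cells, with no overlap between any of these groups. The change at day 14 was 1.70 ± 0.12 against sorted cells (adjusted p = 9.63e-12) and 0.70 ± 0.12 against cells on gelatin (adjusted p = 2.54e-05). At day 8, with arrays between 1197 and 1980, it did not pass against cells on gelatin (0.14). Ctsa, the protective protein that stabilises neuraminidase and β-galactosidase, was higher than in sorted cells at days 4, 8 and 14 (0.49, 0.25 and 0.55) and did not pass against cells on gelatin (0.07, -0.18 and 0.12). Ctse, an aspartic protease of endosomes, was lower than in sorted cells at day 14 (-0.38), on a dim probe set whose signal was 344 to 392 at day 14 and 421 to 548 in sorted cells, while the other probe sets of the gene did not pass (-0.05 and 0.14).

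Npc1, the membrane transporter that moves cholesterol out of the lysosome, was higher at all EB stages against both ES cell groups. Its signal had a lowest value of 590, a median of 642 and a highest of 667 in sorted ES cells, 972, 1039 and 1110 in ES cells on gelatin, 1206, 1349 and 2332 in day 4 EBs, 1426, 1612 and 2213 in day 8 EBs, and 1789, 1955 and 2445 in day 14 EBs. No array of EBs overlapped an ES cell array at any of the 3 times. The changes against sorted cells were 1.22, 1.44 and 1.65 at days 4, 8 and 14 (SE 0.13 each, adjusted p = 6.64e-08, 3.45e-09 and 7.38e-11), and against cells on gelatin 0.52, 0.73 and 0.94 (adjusted p = 0.00331, 5.82e-05 and 1.23e-06). The step from day 4 to day 8 did not pass (0.22), and it passed without day 4 arrays 6 and 7 (0.42, adjusted p = 0.00106), which were the highest of that day at 1948 and 2332. Without these arrays the day 4 changes were 1.02 against sorted cells (adjusted p = 1.52e-08) and 0.31 against cells on gelatin (adjusted p = 0.0194). Npc2, the soluble protein that hands cholesterol to Npc1, did not pass at day 4 (-0.03 against sorted cells and 0.10 against gelatin cells) and was higher at day 14 (0.42 and 0.54).

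Lamp2, the membrane protein needed for fusion of autophagosomes with lysosomes, was higher at day 14 but uneven within groups. Its signal had a lowest value of 1423, a median of 1911 and a highest of 2487 at day 14, against 580, 796 and 1581 in ES cells on gelatin and 420, 1062 and 1361 in sorted ES cells. The day 14 arrays were all above the sorted ones and overlapped 1 gelatin array, and the changes were 1.09 ± 0.30 (adjusted p = 0.00408) and 1.16 ± 0.30 (adjusted p = 0.00256). At day 8 it ran between 718 and 2295 and did not pass (0.32 and 0.39). A probe set of similar brightness also passed against sorted cells (1.09) and did not pass against cells on gelatin (0.56, adjusted p = 0.0667).

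The ES cell groups also differed from each other. Set against sorted ES cells, cells on gelatin had 14 members higher, 3 lower and 16 not passing, against 23.3% and 18.4% of all genes, with a median of 0.23 for the members and 0.00 for all genes. The higher ones included 5 of the 6 membrane proteins. Lamp1, often used to mark lysosomes, had 11282, 12269 and 14569 as lowest, median and highest signal on gelatin, against 6653, 6868 and 7425 in sorted cells (0.85 ± 0.09, adjusted p = 1.69e-08), and Cd63, a tetraspanin of late endosomes, had 5994, 6722 and 9633, against 3427, 3858 and 4500 (0.88 ± 0.11, adjusted p = 2.75e-07). Neither gene had overlapping arrays in these groups. At day 14 Lamp1 was lower than on gelatin (-0.71 ± 0.09, adjusted p = 2.02e-07) and did not pass against sorted cells (0.14), with arrays of 6776 to 9530, whereas Cd63 did not pass against gelatin (-0.15) and was higher than in sorted cells (0.74). The Gapdh ratio was also highest on gelatin. In the same comparison 5 of 12 fibroblast genes and 4 of 8 parietal endoderm genes were higher on gelatin, and 8 of 10 pluripotency genes were lower. The part of these in the lysosomal differences was not tested.

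Ctsd and Psap lay between the ES cell groups: at days 4, 8 and 14 both were lower than on gelatin and higher than in sorted cells in the test. Ctsd, the main aspartic protease of the lysosome, had a lowest signal of 4866, a median of 5263 and a highest of 5838 at day 14, against 6718, 7149 and 8574 in ES cells on gelatin and 4476, 4701 and 4773 in sorted ES cells. Psap, the precursor of the saposins that present lipids to hydrolases, had 3353, 3605 and 4632 at day 14, against 4834, 4982 and 6038 on gelatin and 2527, 2692 and 3057 in sorted cells. No day 14 array of these genes overlapped an ES cell array of either kind. For Ctsd the change was -0.48 ± 0.06 against cells on gelatin (adjusted p = 1.36e-07) and 0.18 ± 0.06 against sorted cells (adjusted p = 0.0143), and the change against sorted cells did not pass after quantile normalization (0.08) or median centring (0.07). For Psap it was -0.47 ± 0.09 (adjusted p = 6.75e-05) and 0.44 ± 0.09 (adjusted p = 1.35e-04). With the mean of its 3 probe sets the change of Psap against sorted cells did not pass (0.12, adjusted p = 0.206).

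Scarb2, the membrane protein LIMP-2 that carries glucocerebrosidase to lysosomes, fell in both comparisons at day 14. Its lowest, median and highest signals were 805, 842 and 911 at day 14, against 1076, 1245 and 1370 in ES cells on gelatin and 853, 1082 and 1200 in sorted ES cells. All day 14 arrays were below the gelatin arrays (-0.55 ± 0.08, adjusted p = 1.44e-06) and they overlapped 1 sorted array (-0.32 ± 0.08, adjusted p = 0.00143). It was higher than in sorted cells at day 4 (0.23) and fell by day 8 (-0.44, adjusted p = 9.67e-05). Cln3, the membrane protein behind juvenile ceroid lipofuscinosis, was lower at day 14 than on gelatin (-0.16, adjusted p = 0.0187) and did not pass against sorted cells (0.11).

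**Figure D4:**
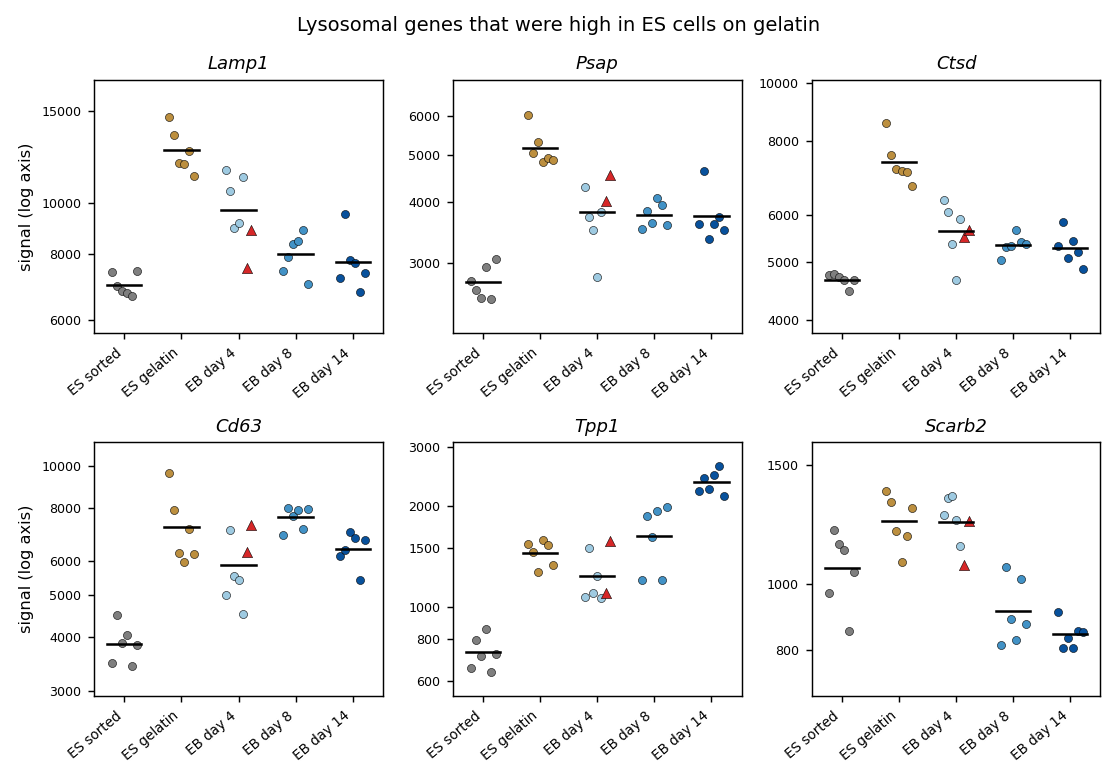
Signal of 6 lysosomal genes in each array (points, log axis), with group means as black bars, groups ordered in time and day 4 arrays 6 and 7 as red triangles. Lamp1, Psap and Ctsd have their highest arrays in ES cells on gelatin, Tpp1 has its highest at day 14, and Scarb2 has its lowest at day 14.

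The glycosidases remove sugars from glycoproteins and glycolipids. Of 9, 2 were higher, 1 lower and 6 did not pass at day 14 against sorted ES cells (median -0.02), where 27.0% of all genes were higher and 24.4% lower. Against cells on gelatin 1 was higher and 8 did not pass (median -0.02), where 22.8% of all genes were higher and 24.1% lower. Hexa, the α subunit of β-hexosaminidase, was higher than in sorted cells at days 4, 8 and 14 (0.29, 0.58 and 0.50), and the day 4 call was lost without arrays 6 and 7 (0.12, adjusted p = 0.260). Fuca1, an α-fucosidase, was higher at day 14 (0.32, adjusted p = 0.0291), with overlapping arrays and no call under quantile normalization (0.23) or median centring (0.21), and Naglu, which acts on heparan sulfate, was lower (-0.29, adjusted p = 0.0242). Glb1, the lysosomal β-galactosidase, was the glycosidase higher than on gelatin (0.46 ± 0.07, adjusted p = 1.91e-06), with 503 to 631 at day 14, against 373 to 476 on gelatin, and it did not pass against sorted cells (-0.04), whose arrays ran from 523 to 647. Gusb, β-glucuronidase, was lower at day 8 than in sorted cells (-0.70, adjusted p = 6.87e-05) and than on gelatin (-0.67, adjusted p = 8.60e-05), and was higher again at day 14 than at day 8 (0.41, adjusted p = 0.0129). The α-glucosidase Gaa, the α-mannosidase Man2b1 and the galactosylceramidase Galc passed in none of the 9 comparisons over all arrays, and Man2b1 passed at day 8 against day 4 without day 4 arrays 6 and 7 (0.16, adjusted p = 0.0166). Gla, an α-galactosidase, was close to the floor of the arrays, with signals of 59.4 to 98.9.

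Hydrolases of lipids and sulfate esters were also mixed. Of 5, 2 were higher and 1 lower at day 14 against sorted ES cells (27.0% and 24.4% of all genes). Against cells on gelatin 1 was higher (22.8% of all genes). Arsa, which removes sulfate from sulfatide, was higher at day 14 than in sorted cells (0.60, adjusted p = 1.17e-06), with 438 to 511, against 299 to 347, and higher than on gelatin by 0.21 with overlapping arrays, a difference that lost its call under quantile normalization, median centring, the mean of probe sets and 8 fits without 1 array. Its probe set was among the dim ones left out in another setting. Asah1, acid ceramidase, was higher than in sorted cells by 0.46 (adjusted p = 0.0476), with overlapping arrays, and lost its call under quantile normalization (0.36) and median centring (0.35). Ppt1, which removes palmitate from proteins, was lower (-0.42, adjusted p = 9.62e-04), with 822 to 972, against 998 to 1372 in sorted cells. Smpd1, acid sphingomyelinase, was lower at days 4 and 8 (-0.21 and -0.18 against sorted cells) and did not pass at day 14 (0.05), and the acid lipase Lipa passed in none of the comparisons.

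**Figure D5:**
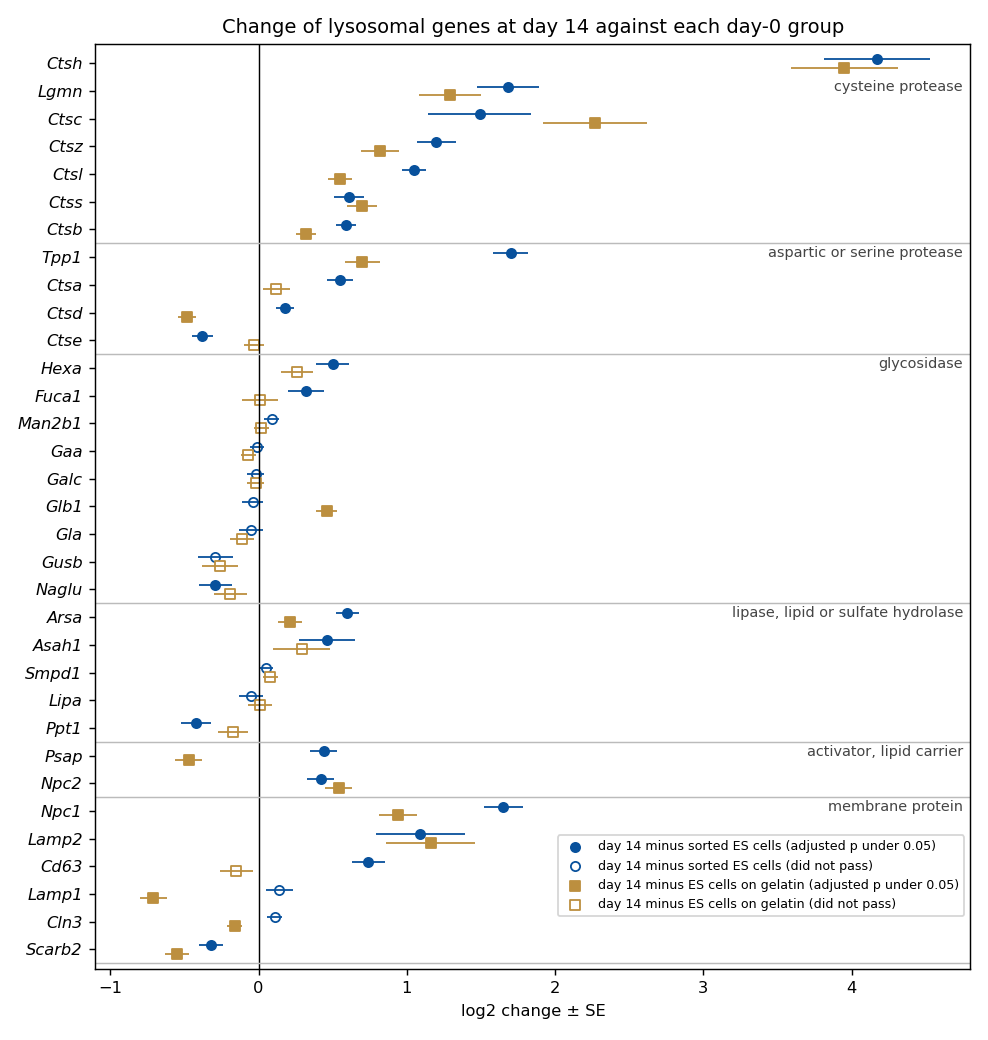
Change of each of the 33 lysosomal genes at day 14 on the log2 scale, minus sorted ES cells (blue circles) and minus ES cells on gelatin (brown squares), with standard errors, grouped by role. Filled symbols passed at an adjusted p under 0.05, and all 7 cysteine proteases are filled and right of 0 for both.

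Genes of the wider lysosomal and endosomal machinery moved in both directions. Their counts stand beside 27.0% of all genes higher and 24.4% lower at day 14 against sorted cells, and 22.8% and 24.1% against cells on gelatin, and nothing particular to these lists is read from them. Among 24 further lysosomal genes, 8 were higher and 4 lower at day 14 against sorted cells (9 and 7 against cells on gelatin): Pcyox1, which breaks down prenylcysteines (1.48 and, against gelatin, 0.58), Ifi30, a thiol reductase (1.29 and 1.42), and Laptm4a, a membrane protein (1.16, and 0.35 without passing), were higher, and Laptm5, its relative of blood cells (-1.31 and -0.90), was lower. Of 15 subunits of the proton pump 5 were higher and 1 lower, with values of 0.72 for Atp6v1b2, 0.49 for Atp6ap1, 0.40 for Atp6v0e and -0.49 for Atp6v0a2, while 1 was higher and 4 lower against cells on gelatin. Of 17 genes for enzyme sorting and lysosome regulation 9 were higher and 2 lower (6 and 3 against cells on gelatin). Igf2r, the large mannose 6-phosphate receptor, rose by 1.42 ± 0.13, with 4186, 5249 and 6644 as lowest, median and highest signal at day 14, against 1590, 1968 and 2440 in sorted cells. The nutrient-sensing GTPases Rragc (1.12) and Rragd (1.00) and the retromer subunit Vps26a (0.77) rose as well, while Rragc did not pass against cells on gelatin (-0.42). Tfeb, the regulator itself, did not pass (-0.02), and M6pr, the small mannose 6-phosphate receptor, was lower (-0.20). Of 28 genes for endocytosis and endosome fusion 13 were higher and 3 lower (8 and 5 against cells on gelatin), with Stx7 (1.55), Rab14 (0.91), Vamp8 (0.86) and Rab11a (0.82) the largest. Against cells on gelatin Stx7 (1.34), Rab14 (0.62) and Vamp8 (0.48) were higher and Rab11a was lower (-0.30, adjusted p = 0.00924). Of the 5 protease inhibitors Cst3, or cystatin C, was higher (0.80) and Timp1 (-1.23) and Cstb (-0.35) were lower.

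The counts were also read by the presence of the E-box. At day 14 against sorted ES cells, 5 of 11 measured members with a match were higher and 1 lower (median 0.14), and 10 of 17 without a match were higher and 2 lower (median 0.42). Against cells on gelatin it was 4 higher and 3 lower of 11 (median -0.07) and 6 higher and 2 lower of 17 (median 0.02). On gelatin against sorted cells, 6 of 11 with a match were higher and 1 lower, and 6 of 17 without were higher and 1 lower. Of all genes, 23.3% were higher and 18.4% lower there. The medians were 0.39 for the 11 with a match, which include Lamp1 and Ctsd, and -0.01 for the 17 without. For EBs against sorted cells, the medians with and without a match were 0.16 and -0.03 at day 4, and 0.19 and 0.30 at day 8. At day 14, 27.0% of all genes were higher and 24.4% lower against sorted cells, and 22.8% and 24.1% against cells on gelatin. The E-box counts and medians are descriptions of few genes and were not tested.

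Genes of yolk sac uptake were set beside the lysosomal genes array by array. Dab2 had a lowest signal of 5018, a median of 5862 and a highest of 7137 at day 14, against 575, 708 and 925 in ES cells on gelatin and 126, 172 and 221 in sorted ES cells, and Cubn had 3964, 4884 and 6384, against 171, 214 and 246 on gelatin and 174, 183 and 217 in sorted cells. No day 14 array of these genes overlapped an ES cell array (Dab2 5.12 ± 0.41 and 3.04 ± 0.41, Cubn 4.72 ± 0.41 and 4.58 ± 0.41 on the log2 scale against sorted and gelatin cells). Lrp2 had 492 to 588 at day 14, against 686 to 1206 on gelatin and 384 to 459 in sorted cells (-0.81 and 0.37 against gelatin and sorted cells). Day 8 arrays 2, 4 and 6 had Dab2 at 6363, 5816 and 5434 and Cubn at 4232, 3282 and 2991, and arrays 1, 3 and 5 had Dab2 at 3004, 4140 and 3047 and Cubn at 1542, 2011 and 1858. In the same order Ctsh had 6227, 6141 and 7551 in arrays 2, 4 and 6 and 3909, 5509 and 3864 in arrays 1, 3 and 5, and Tpp1 had 1869, 1927 and 1980 and 1202, 1611 and 1197. Thus the arrays with more Dab2 and Cubn also had more Ctsh and Tpp1, and they had less Pou5f1 (949 to 1210, against 2016 to 2747). Ctsc ran the other way, with 6080, 5133 and 6658 in arrays 2, 4 and 6 and 7575, 7770 and 7088 in arrays 1, 3 and 5. Among members not shown here, Ctsb, Cd63, Lgmn, Ctsl, Npc2, Gla, Ctss and Lamp2 followed the mean of Dab2, Cubn and Lrp2 at day 8. So did Gusb, Asah1, Npc1, Smpd1 and Arsa. Naglu, Fuca1, Ppt1 and Man2b1 ran against that mean. The members shown are examples, and no share of the members is read from this split.

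Within each group the log2 signal of every member was also set against the mean of the 3 uptake genes Lrp2, Cubn and Dab2 across its arrays. At day 14 (6 arrays) the correlation was above 0 for 26 of 33 members, with a median r of 0.22, against 56.6% and 0.08 for all genes. In ES cells on gelatin (6 arrays) it was 26 with a median of 0.79, against 59.4% and 0.20. In sorted ES cells (6 arrays) it was 20 with a median of 0.25, against 53.2% and 0.06. On gelatin Cubn was about as low as in sorted cells and the Gapdh ratio spread from 3.48 to 6.85, and their part was not tested. The points share the array and its scaling, so these are descriptions with no test. At days 4 and 8 the arrays fall into separate clusters, as above, and no correlation is given.

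Cells other than yolk sac endoderm also carry lysosomes, and their markers were read beside these results. The marker counts at day 14 stand beside 27.0% of all genes higher and 24.4% lower against sorted cells. Of 15 macrophage genes 6 were higher and 3 lower at day 14, set against sorted cells, and their summed signal was 8136 to 9430 at day 14, 7083 to 8583 in cells on gelatin and 8141 to 9361 in sorted cells. The macrophage growth factor receptor Csf1r (0.82) and the leukocyte tetraspanin Cd53 (0.89) were higher, and Laptm5 (-1.31) and Spi1 (-0.29) were among the 3 lower. The leukocyte antigen Ptprc (0.09) and the lysozyme gene Lyz2 (0.13) did not pass. Of 12 fibroblast genes 7 were higher and 1 lower (summed signal 23697 to 39178 at day 14, 9793 to 16630 on gelatin and 5687 to 8271 in sorted cells). The sum was 4354 to 6293 at day 4 and 4910 to 17263 at day 8. At day 8, 5 of the 12 were higher than at day 4, among them Postn (2.20), Col3a1 (1.94) and Lum (1.82). Thy1 was lower (-0.82), and 13.6% of all genes were higher and 13.0% lower. Parietal endoderm genes were 5 of 8 higher and 1 lower, with Col4a1 at 3.67, and trophoblast genes 2 of 5 higher. The part of these cells in the lysosomal results was not tested.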

How the data were processed

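Mouse RNA from 31 samples was amplified in 2 rounds and hybridised to MgU74Av2 arrays. The authors normalized and modelled the probes with dChip (version and model not given in the sources used here), and the deposited values are signal intensity on a linear scale. Array medians ran from 552.7 to 637.1 and 104 of 387128 values were 0. The study's methods list no day 14 but an earlier day and later ones after day 8, so the group that the labels call day 14 may be that earlier day, and the labels were followed.

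The table holds 12488 probe sets, and 12422 remained after removal of 66 controls. A symbol was carried by 10833 probe sets, several by 396 and none by 1193. Values under the 5th percentile (59.6) were raised to it and log2 transformed. All arrays went into 1 linear model with 5 group means (limma 3.58.1 in R 4.3.3, moderated with a trend of variance on signal), with Benjamini-Hochberg adjustment over all probe sets at 0.05. A log2 change is the first group minus the other. The counts of all genes use 1 probe set per gene (8251). The number of arrays, 6 or 7 a group, limits the precision. Arrays correlated between 0.947 and 0.997 within groups, and p-values measure the spread between these arrays, which may be technical where they do not stem from separate cultures. Same-numbered arrays were not paired.

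The members and gene lists were chosen with earlier results of these data known. Array values are given for the 8 members with the largest change at day 14 that passed against both ES cell groups in 1 direction, for those that passed in opposite directions, and for those lower against both, and up to 4 genes are named from each other list. Lamp1, Cd63, Dab2, Cubn, Lrp2 and Igf2r got array values after theirs were seen, and so did other genes outside this rule. Promoters are RefSeq sequences (GRCm38.p6, 32851 windows of 27025 genes), matched by symbol. Alternatives were quantile normalization, median centring, other floors, dim probe sets left out, a replicate block, 2 groups only, no variance trend, the mean of probe sets, array weights, an added limit of 2-fold, and leaving out arrays. Figures were drawn with matplotlib 3.10.9.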

Additional observations from a re-analysis of the deposited data

Results flagged for a closer look

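In 3 of 55 sets of arrays tested, for the 11 members with array values in 5 groups, 1 array lay far from the others of its group, judged by its gap to the nearest array as a share of the range. Chance flags about 1 in 20 such sets. Psap had a signal of 4632 in day 14 array 2, above the other day 14 arrays (gap share 0.709). Ctsh had 392 in array 1 of ES cells on gelatin, above the rest of that group (gap share 0.726). Ctsd had 4476 in array 5 of sorted ES cells, below the rest of that group (gap share 0.662).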

How the results depend on the processing

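Counts of lysosomal genes kept within 1.5 times the reported ones in the settings not listed here, and no gene that had passed turned in sign. With a 2-fold change required as well, the counts higher were 1, 7 and 8 at days 4, 8 and 14 against sorted ES cells, 0, 3 and 4 against cells on gelatin, 0 for gelatin against sorted cells, 3 for day 8 against day 4 and 0 for day 14 against day 8, and all counts lower were 0. No share of all genes is given at this limit, so nothing particular to the members is read from these counts. Quantile normalization gave 4 higher and 3 lower at day 4 against gelatin, 6 lower on gelatin against sorted cells, and 5 lower at day 14 against day 8. Median centring gave 3 lower at day 4 against gelatin and 5 lower at day 14 against day 8. With 2 groups only, 4 and 8 were lower at days 4 and 14 against gelatin, 3 at day 8 against day 4 and 3 at day 14 against day 8. Array weights gave 5 lower on gelatin against sorted cells, and 11 higher and 2 lower at day 14 against day 8. At day 14 against day 8, 1 was lower with the floor at the 1st percentile, dim probe sets left out, no variance trend, the mean of probe sets and the replicate block. The causes were not tested. Leaving out each array in turn gave 3 to 5 lower at day 8 against day 4 and 0 to 1 at day 14 against day 8.

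The replicate block gave 19 higher and 5 lower at day 14 against sorted cells and 14 and 5 against gelatin, adding Gusb (-0.29) and Hexa (0.26). The numbers do not pair the arrays: same-numbered arrays correlated between -0.351 and 0.494 after group means were removed. At day 14 against sorted cells, Asah1, Ctsd and Fuca1 lost their call under both scalings, and Asah1, Fuca1 and Naglu in some fits without 1 array. With the mean of probe sets, Ctse and Psap lost their call there, and Arsa and Ctsb against gelatin. Median centring moved the median of all probe sets there to -0.11, with 2327 higher and 5111 lower, quantile normalization gave 2506 and 4104, and the reported fit 3086 and 2980. The split of all probe sets also moved, with median centring first, quantile normalization next and the reported fit last, in 4 other comparisons. It was 2422 higher and 1521 lower, 1840 and 1403, and 987 and 2023 at day 4 against gelatin, and 2765 and 2683, 3062 and 2541, and 2158 and 3177 at day 8 against gelatin. It was 2268 and 3797, 2158 and 3264, and 2660 and 2259 for gelatin against sorted cells, and 1721 and 3153, 1808 and 2473, and 2493 and 1475 at day 14 against day 8. Without day 4 arrays 6 and 7, 11 members were higher and 6 lower than in sorted cells, 3 and 9 against gelatin, and 13 and 5 at day 8 against day 4. Array number and brightness limit what dim genes such as Gla and Galc can show.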
